A study of Mus musculus with 2 samples.

Results

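Mouse embryonic stem cells (ESCs) and epiblast-like cells (EpiLCs) of the wild-type (WT) line were compared with each other. The cells were chosen by their own transcripts. A cell was taken when it had at least 1000 detected genes, at most 10% mitochondrial UMIs (unique molecular identifiers, each counting 1 captured RNA molecule), at least 1 UMI of the reporter tdTomato and 0 UMIs summed over the Y-linked genes Ddx3y, Eif2s3y, Kdm5d and Uty. This rule took 435 of 13184 barcodes in the ESC library and 368 of 12427 in the 48h-EpiLC library. Of the cells that passed the 2 filters on quality, these were 3.94% of 11054 (3.58% to 4.31%, exact Clopper-Pearson interval) and 3.91% of 9400 (3.53% to 4.33%). tdTomato and the Y-linked genes chose the cells, so their values are not results.

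ESCs (0 h) were grown in serum/LIF on feeder cells, and 48h-EpiLCs (48 h) on Matrigel in N2B27 with activin A, bFGF and KSR. The strain was ICR at both stages. WT cells carried ROSA mT/mG, a reporter from which every cell transcribes tdTomato, and they were mixed in equal numbers with Cnot8 knockout (KO) cells before each droplet-based 3′ library was made. There was 1 library per stage and no replicate, so no test was run, no difference has a replicate check, and stage, medium, feeder cells and library cannot be told apart. The study's general methods form EpiLCs from ESCs kept in an inhibitor medium with LIF (2i/LIF), so the sequenced serum/LIF ESCs may not be the direct source of the EpiLCs. Unless stated otherwise, intervals are exact 95% intervals that cover counting error only.

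The 2 kinds of marker that chose the cells are given side by side as a description, not as a check of the line label. A tdTomato UMI was found in 7.56% of ESCs without a Y-linked UMI, and in 1.16% of those with at least 2. In 48h-EpiLCs these shares were 7.97% and 1.16%. Most chosen cells had a single tdTomato UMI (402 ESCs and 344 48h-EpiLCs), so some cells of the other line may be among them. In 95 feeder cells of the ESC library, described below, no tdTomato UMI was seen, so that, with a floor of 3 cells, up to 3.16% of them could have had one. The libraries shared 41 barcodes, and no barcode was chosen in both.

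The chosen ESCs held 6154790 UMIs, with 4900 to 36932 per cell and a median of 13151. The 48h-EpiLCs held 6219834 UMIs, with 2155 to 46760 per cell and a median of 15598, which is 1.19 times the ESC median (1.09 to 1.28, from order-statistic intervals over cells). Median numbers of detected genes were 3642 and 3991.5. After each cell had been thinned to 5000 UMIs the medians were 2055 and 2053 genes. Ribosomal protein genes took 22.5% of the UMIs of ESCs and 24.3% of those of 48h-EpiLCs, and mitochondrial transcripts took 3.92% and 3.04%.

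Naïve pluripotency is the state of the preimplantation epiblast, held in ESCs by LIF through STAT3 and by a network of factors that includes Klf4, Esrrb, Tfcp2l1 and Nanog. Formative pluripotency follows it: naïve factors are lost, Otx2, Pou3f1 and Fgf5 come on, and cells gain the competence for germline and somatic fates. EpiLCs are made with activin and FGF and resemble the epiblast soon after implantation.

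UMIs were summed over the chosen cells of each stage and scaled to their total (CPM, counts per 1000000). A gene was measured when its mean over both stages was at least 5 CPM, and it was past 2-fold when the log2 ratio of CPM + 1, 48h-EpiLC over ESC, was at least 1 or at most -1. Of 9242 measured genes, 440 (4.76%) were past 2-fold on the higher side in 48h-EpiLCs and 430 (4.65%) on the lower side. The median log2 ratio over all measured genes was 0.03, and 90% of genes lay between -0.96 and 0.97. Below, a fold is the plain ratio of CPM, and a list's median is on the log2 ratio of CPM + 1. Counts past 2-fold in every list stand against the shares of 4.76% and 4.65% over all measured genes. A log2 ratio above 0 was found in 4847 of the 9242 measured genes.

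**Figure D1:**
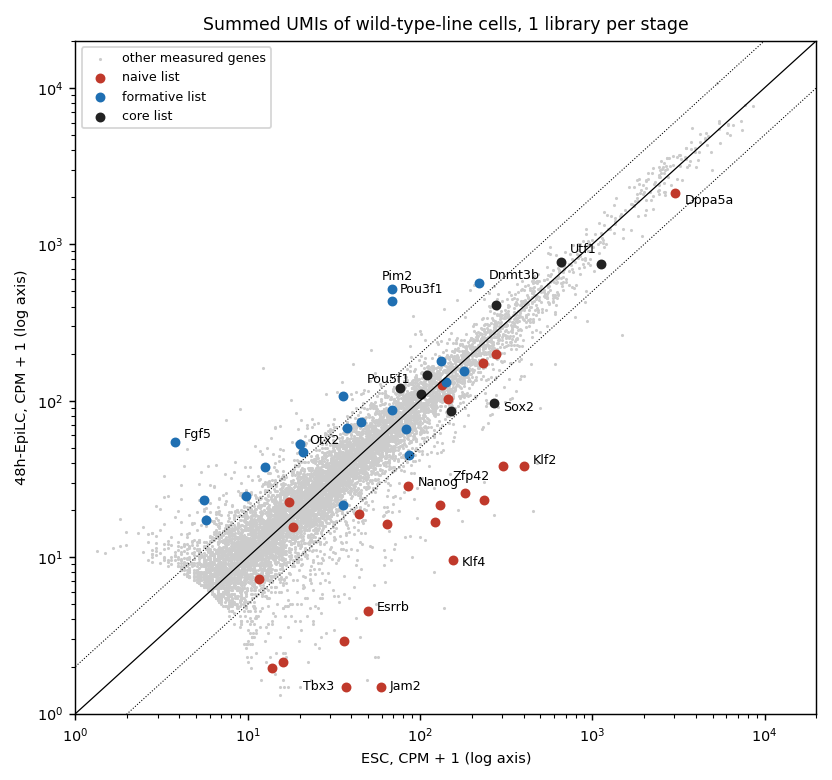
CPM + 1 in ESCs (x axis) and 48h-EpiLCs (y axis) on log axes, 1 point per measured gene, from the summed UMIs of 435 and 368 cells; the solid line is equality and the dotted lines are 2-fold. Naïve-list genes (red) lie mostly below the lower dotted line, formative-list genes (blue) mostly on or above the upper side, and most core genes (black) near equality.

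Most naïve factors were lower in 48h-EpiLCs. Of 25 naïve-list genes, 24 were measured. Of these, 16 were past 2-fold on the lower side and 0 on the higher side, against a background of 4.65% and 4.76%. The median log2 ratio was -2.72, against 0.03 for all measured genes.

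The Krüppel-like factors, which bind a shared set of naïve targets, were all lower. Klf4 was 155 CPM (145 to 165) in ESCs and 8.52 CPM (6.38 to 11.1) in 48h-EpiLCs, 18.1-fold lower (13.7 to 24.4). Klf2, which is known as a target of ERK signalling at the protein level, went from 400 CPM (399.7; 384 to 416) to 37.5 CPM (32.8 to 42.6). Klf5 was 181 CPM in ESCs and 24.6 CPM in 48h-EpiLCs. The Poisson intervals of the 2 stages did not overlap for any of these factors. Klf4 and Klf2 are not specific to ESCs in this library, as feeder cells had 248 and 104 CPM of them.

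Tbx3, a T-box factor that sustains self-renewal, was 36.4 CPM (224 UMIs) in ESCs and 0.482 CPM (3 UMIs) in 48h-EpiLCs, a ratio of 75.5 (25.5 to 369). Jam2, which encodes a junctional adhesion molecule, was at 58.3 CPM (359 UMIs) and 0.482 CPM (3 UMIs), a ratio of 121 (41.0 to 589). These were the smallest log2 ratios of the list, and 3 UMIs leave them loosely bounded. Tfcp2l1, a STAT3 target of the naïve network, was 18.2-fold lower (10.2 to 35.8), from 35.1 to 1.93 CPM. Esrrb, the orphan nuclear receptor, was 13.8-fold lower (8.93 to 22.3), from 48.7 to 3.54 CPM. Zfp42 (Rex1), a widely used marker of naïve cells, was 304 CPM (289.9 to 318) in ESCs and 37.5 CPM (32.8 to 42.6) in 48h-EpiLCs, 8.10-fold lower (7.07 to 9.32).

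Not all of the naïve list moved so far. Nanog, the homeobox factor of the network, was 3.07-fold lower (2.58 to 3.67), from 84.5 to 27.5 CPM. Dppa5a, which encodes an RNA-binding protein abundant in pluripotent cells, was 3035 CPM in ESCs and 2118 CPM in 48h-EpiLCs, 1.43-fold lower (1.40 to 1.47). Fgf4, the autocrine ligand that drives exit from the naïve state, was 1.42-fold lower (1.28 to 1.58). Gdf3, a ligand of the TGF-β family, had a ratio of 1.07 whose interval (0.966 to 1.18) included equality. Dppa3 (Stella) was the 1 measured naïve gene with a log2 ratio above 0, at 16.2 CPM in ESCs and 21.5 CPM in 48h-EpiLCs. Prdm14, which was below the level for measurement, had 7 UMIs in ESCs and 0 in 48h-EpiLCs. Its ESC level was 2.36 times a floor of 3 UMIs in the 48h-EpiLC total, without the counting error of the 7 UMIs. Dppa5a, Fgf4, Gdf3 and Dppa3 were thus within 2-fold of their ESC level while Klf4, Tbx3 and Esrrb were at a small part of it.

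Over a majority of its measured genes, the formative list was past 2-fold higher in 48h-EpiLCs. Of 22 genes, 20 were measured, 11 were past 2-fold on the higher side and 0 on the lower side. The median log2 ratio was 1.25. Fgf5, the ligand that marks the epiblast after implantation, had 2.76 CPM (1.61 to 4.42, 17 UMIs) in ESCs and 53.4 CPM (47.8 to 59.4, 332 UMIs) in 48h-EpiLCs, 19.3-fold higher (11.9 to 33.6), and this was the largest log2 ratio of CPM + 1 in the list. Pou3f1 (Oct6), a POU factor of the same epiblast, was 6.403-fold higher (5.77 to 7.11), from 68.1 CPM (61.7 to 74.9) to 436 CPM (420 to 453). Pim2, a serine/threonine kinase gene, was 7.63-fold higher (6.88 to 8.46), from 67.9 to 518 CPM. Both stages thus had Pou3f1 and Pim2 transcripts, whereas all ESCs together held 17 UMIs of Fgf5.

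Transcription factors with smaller ratios followed. Otx2, which redirects Oct4 to formative enhancers, was 19.2 CPM (15.9 to 22.96) in ESCs and 52.3 CPM (46.7 to 58.3) in 48h-EpiLCs, 2.73-fold higher (2.20 to 3.39). Sall2 was 4.91-fold higher (3.26 to 7.66), Zic2 3.16-fold (2.41 to 4.19) and Tead2, a partner of YAP, 3.05-fold (2.61 to 3.58). Sox3 was 2.69-fold higher (1.96 to 3.75), but with the cells that had at least 2 tdTomato UMIs (33 and 24 cells) its log2 ratio turned to -0.24. Dnmt3b, the de novo DNA methyltransferase of the epiblast, was 219.7 CPM (208 to 232) in ESCs and 567 CPM (548 to 586) in 48h-EpiLCs, 2.58-fold higher (2.42 to 2.75). Within 2-fold and lower were the ETS factor Etv4 (1.93-fold; 1.66 to 2.24) and Foxd3 (1.70-fold; 1.36 to 2.14). Etv4 is an ERK target and Foxd3 represses naïve enhancers, so the list does not move as 1 block.

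Core pluripotency genes, shared by both states, were closer to equality. Of 8 genes, 1 was past 2-fold, on the lower side, and the median log2 ratio was 0.18. Pou5f1 (Oct4) was 99.8 CPM (92.0 to 108) in ESCs and 109 CPM (101 to 118) in 48h-EpiLCs, and the interval of the ratio, 0.981 to 1.22, included equality. Sox2, its partner, was 2.84-fold lower (2.58 to 3.12), from 269 to 95.02 CPM. Sox2 lies inside Sox2ot on the same strand, so the counting may split reads between them. Sall4 was 1.75-fold lower and Utf1 1.17-fold higher.

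**Figure D2:**
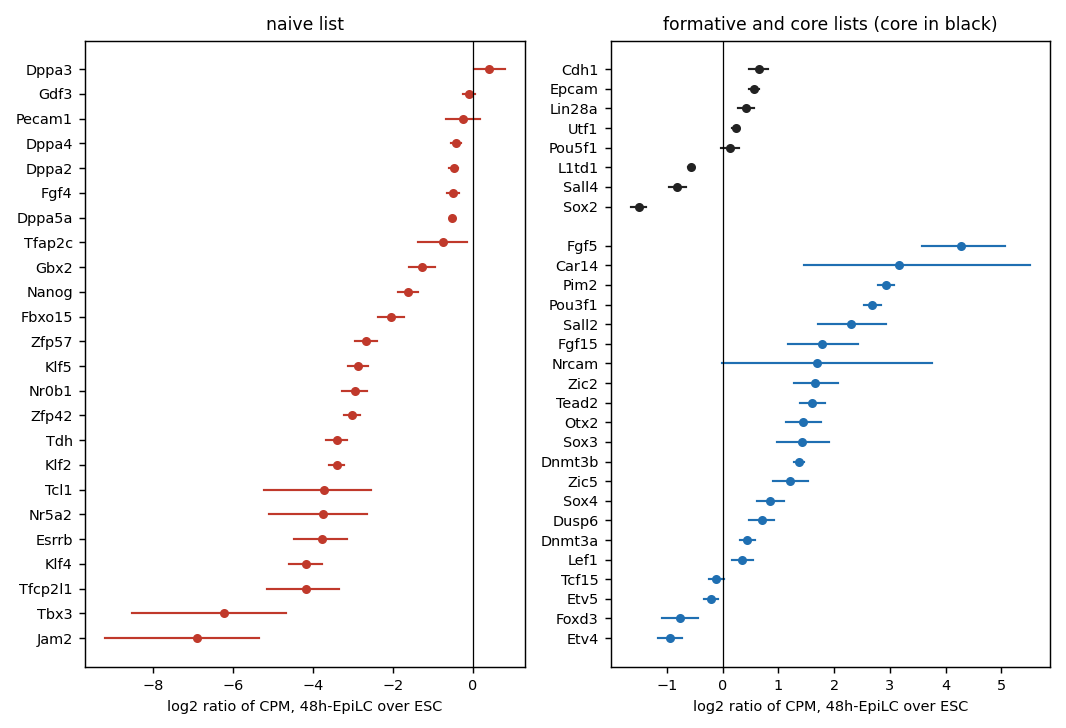
log2 ratio of CPM, 48h-EpiLC over ESC, for the naïve (left), formative and core (right) genes with a UMI at both stages; points are ratios and bars their exact 95% counting intervals, with 1 library per stage, and Prdm14 is left out because it had 0 UMIs in 48h-EpiLCs, as is 1 formative gene that is not reported here. Jam2 and Tbx3 lie farthest to the left with wide bars, Dppa3 is the 1 naïve gene to the right of 0, and Fgf5 has the largest ratio on the right.

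In the mouse genome (GRCm38) Fgf5 lies at chr5:98254184-98277030 on the plus strand, Pou3f1 at chr4:124656807-124660655 on the plus strand, Klf4 at chr4:55527143-55532466 on the minus strand and Zfp42 at chr8:43295063-43306980 on the minus strand, and 3′ libraries read the last exons of such genes. Of these, Pou3f1 overlaps the antisense gene Gm2164.

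The same lists were read in single cells. After thinning to 5000 UMIs, which left out 1 cell per stage, a UMI was found for a median of 9 naïve-list genes in 434 ESCs (2 to 16) and of 4 in 367 48h-EpiLCs (1 to 12). For the formative list the medians were 4 (0 to 10) and 7 (1 to 12). Of the 48h-EpiLCs, 1.36% reached the ESC median of naïve genes, and 3.00% of ESCs were at or under the 48h-EpiLC median. The formative counts overlapped more, as 13.6% of ESCs reached the 48h-EpiLC median. More naïve than formative genes were found in 91.7% of ESCs and in 11.4% of 48h-EpiLCs. The core list had a median of 5 genes per cell at both stages.

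**Figure D3:**
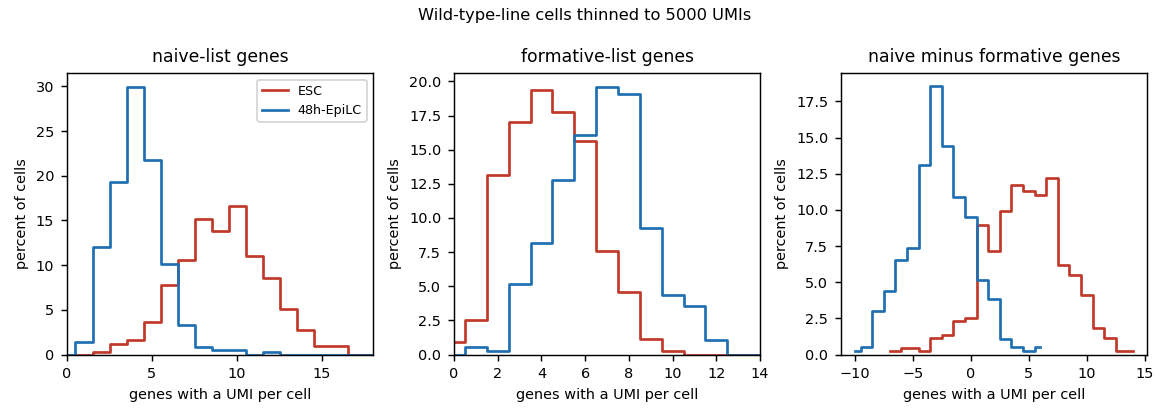
Percent of cells (y axis) by the number of naïve-list genes, of formative-list genes, and by the difference between them (x axes), in 434 ESCs (red) and 367 48h-EpiLCs (blue) thinned to 5000 UMIs. The naïve counts centre on 9 and 4 genes and the formative counts on 4 and 7, with the wider overlap in the formative panel.

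Shares of cells with a UMI, thinned in the same way, put the 4 marker genes of the comparison in single cells. Fgf5 was found in 0.691% of ESCs (0.143% to 2.01%) and 22.1% of 48h-EpiLCs (17.9% to 26.7%), and in 0 of 89 feeder cells. Pou3f1 was found in 24.4% of ESCs (20.4% to 28.7%) and 79.3% of 48h-EpiLCs (74.8% to 83.3%), and again in no feeder cell. Zfp42 was found in 72.1% of ESCs (67.6% to 76.3%) and 14.7% of 48h-EpiLCs (11.2% to 18.8%), against 7.87% of feeder cells. Klf4 was found in 44.2% of ESCs (39.5% to 49.1%) and 4.09% of 48h-EpiLCs (2.31% to 6.65%), and feeder cells, at 56.2%, cannot serve as a background for it. Before thinning the shares were 3.22% (14 of 435) and 184 of 368 cells for Fgf5, 45.1% and 94.6% for Pou3f1, 92.0% and 41.8% for Zfp42, and 68.0% and 10.3% for Klf4. The feeder cells came from the ESC library, so they give no background for the 48h-EpiLC library. They were also chosen for few UMIs of Pou5f1, Utf1, Epcam and L1td1. Their low shares of Fgf5, Pou3f1 and Zfp42 may follow in part from that choice, so they are not an independent background. All 4 markers moved in the direction that the labels of the stages give. They were set beforehand as markers of these stages, so this is a description and not a check of the labels. With 0 of 89 thinned feeder cells and a floor of 3 cells, up to 3.37% could have held a UMI.

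Outside these lists, the 15 largest log2 ratios on the higher side included those of the following genes. Car4, a membrane-anchored carbonic anhydrase, was 11.2 CPM (8.72 to 14.2) in ESCs and 161 CPM (151 to 171) in 48h-EpiLCs, 14.4-fold higher (11.3 to 18.6). Sema6a, a transmembrane semaphorin, and Mmp25, a membrane-anchored metalloproteinase, were 14.1-fold higher each (9.05 to 23.1 and 8.23 to 26.3). Krt18, a keratin of simple epithelia, was 11.4-fold higher (8.21 to 16.1), from 6.50 to 73.8 CPM. Cldn7, a tight junction claudin, was 10.9-fold higher (8.16 to 14.98), from 7.96 to 87.1 CPM. Slc40a1, which encodes the iron exporter ferroportin, was 10.4-fold higher (5.74 to 20.6). The first 15 also held Tmem54, Mapk12, Zfp608, Sh3bgrl, Prtg, Lefty1, Fzd2 and Pkdcc, which were 6.33-fold (Lefty1) to 11.5-fold (Tmem54) higher. Of these, Sh3bgrl was 153 CPM in feeder cells, against 3.09 CPM in ESCs.

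The 15 smallest log2 ratios included those of the following genes. Spink1, a trypsin inhibitor gene, was 47.9 CPM (295 UMIs) in ESCs and 0.643 CPM (4 UMIs) in 48h-EpiLCs, 74.5-fold lower (28.8 to 275). Mylpf, a myosin light chain of fast muscle, was 453 CPM (436 to 470) in ESCs and 18.8 CPM (15.6 to 22.5) in 48h-EpiLCs, 24.1-fold lower (20.0 to 29.2). Mymx, which encodes the muscle fusogen myomixer, was 16.8-fold lower (12.4 to 23.3), from 119 to 7.07 CPM. Khdc3, a gene of the maternal complex of the oocyte, was 43.5-fold lower (21.8 to 101). Myo1f, an unconventional myosin of leukocytes, was 42.1-fold lower (21.1 to 98.2), and H2-M5, a non-classical MHC gene, 21.1-fold lower (12.1 to 40.1). Spp1, which encodes the secreted protein osteopontin, was 12.2-fold lower (10.7 to 13.9), from 474 to 38.9 CPM, and was 5114 CPM in feeder cells. The first 15 on this side also held Gm46332, Sept1, Gm14820, Manba, Cobl, Hmces and Gm26564, at 10.9-fold (Hmces) to 36.8-fold (Gm46332) lower.

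Some of the named genes overlap other genes, and the sources used here do not state whether strand was used in counting, so their reads are uncertain. Among the genes above and below, Sept1 overlaps Zfp553 on the opposite strand, Gm14820 overlaps Suv39h1, Tmem54 overlaps Hpca, Stat3 overlaps Stat5a, Dnmt3l overlaps Aire, Pfkp overlaps Pitrm1 and Tap1 overlaps Psmb9. Khdc3, Fdps and Pcsk6 overlap an annotated coding gene on their own strand.

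Transcripts of other cell types were low in the chosen cells. The 10 feeder fibroblast markers summed to 16.4 CPM in ESCs and 9.003 CPM in 48h-EpiLCs, with 1 and 4 of them at 0. Feeder cells were cells of the ESC library with at least 4 of these markers and under 2 UMIs per 10000 of Pou5f1, Utf1, Epcam and L1td1. In these 95 cells (median 11952 UMIs) Col1a1, a fibrillar collagen gene, was 491 CPM, against 2.76 CPM in the chosen ESCs and 0.643 CPM in 48h-EpiLCs. Col1a1 is among the 10 markers that chose the feeder cells, so its high level in them was set by that choice. The 10 primitive endoderm markers summed to 40.5 and 13.7 CPM, with 0 and 2 of them at 0, and Gata6 was 7.96 and 0.643 CPM. The 10 markers of 2-cell-like cells summed to 12.3 and 2.73 CPM, with 3 at 0 at each stage, and Zscan4d was 6.17 and 0.643 CPM. At least 3 markers of 1 of these lists were found in 3, 8 and 2 ESCs and in no 48h-EpiLC. Without such cells the counts past 2-fold were 446 and 424. Of 13 genes of primed cells and mesendoderm 1 was measured, Eomes, at 3.90 and 6.59 CPM, and of 8 neural genes 3 were, with 1 past 2-fold on the lower side. Below the level for measurement, T (Brachyury) had 0 UMIs in ESCs and 19 UMIs (3.05 CPM) in 48h-EpiLCs. This was 6.27 times a floor of 3 UMIs in the ESC total. Mixl1 had 0 and 3 UMIs.

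LIF acts through the receptors Lifr and Il6st (gp130), the kinase Jak1 and the factor Stat3, whose targets include Socs3, a feedback inhibitor. The LIF medium belonged to the ESC stage. Of 17 genes, 15 were measured, 9 were past 2-fold on the lower side and 0 on the higher side, and the median log2 ratio was -1.20. Lifr was 25.2 CPM (21.4 to 29.5) in ESCs and 4.502 CPM (2.99 to 6.51) in 48h-EpiLCs, 5.59-fold lower (3.72 to 8.69). Il6st was 2.62-fold lower (1.58 to 4.498), and Stat3 itself was 6.75-fold lower (4.83 to 9.66), from 43.4 to 6.43 CPM. Jak1 was within 2-fold, with a log2 ratio of -0.37. Of the targets, Socs3 was 7.85-fold lower (5.20 to 12.3), from 32.8 to 4.18 CPM, and Bcl3 12.2-fold lower (6.93 to 23.4), from 25.5 to 2.09 CPM. Klf4, Tfcp2l1 and Gbx2 stand in this list as well as in the naïve list.

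The Pim kinases, whose genes respond to STAT factors in several cell types, did not move together. Pim3 was 2.32-fold lower (2.04 to 2.65), from 124 to 53.4 CPM, whereas Pim1 was 1.88-fold higher (1.72 to 2.05), from 125 to 235 CPM, and Pim2 was 7.63-fold higher.

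Because Socs3 is a textbook STAT3 target and was lower with the list, its promoter was searched for the STAT palindrome TTCNNNGAA, which reads the same on both strands. The sequence is from RefSeq (GRCm38.p6, minus strand, chr11:117969367-117969616) and covers the 250 bases before the annotated start. The palindrome is in capitals.
Socs3: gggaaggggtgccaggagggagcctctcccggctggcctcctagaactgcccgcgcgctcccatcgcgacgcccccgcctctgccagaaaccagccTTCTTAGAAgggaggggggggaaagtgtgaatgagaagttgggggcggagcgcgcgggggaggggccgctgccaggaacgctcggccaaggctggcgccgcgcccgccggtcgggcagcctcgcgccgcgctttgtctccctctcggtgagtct
The 1 match begins 154 bases before the start. Of the 16 LIF-list genes with a promoter in the table, this was the 1 gene with a match. Over all 32851 promoters of this length 7.02% held one. By gene, the share was 6.74% of 7377 measured genes, 8.07% of 322 genes past 2-fold on the lower side and 6.402% of 328 on the higher side. A match is a string of letters and not a measured binding site.

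In the BMP list, 10 of 18 genes were measured, 1 was past 2-fold on the higher side and 2 on the lower side, and the median log2 ratio was 0.10. BMP4 in serum cultures acts through SMADs to induce Id genes. Bmp4 was 12.7-fold lower (7.49 to 23.1), from 30.5 to 2.41 CPM. Id1 was 81.2 CPM (74.3 to 88.7) in ESCs and 12.5 CPM (9.91 to 15.7) in 48h-EpiLCs, 6.48-fold lower (5.09 to 8.33). Id3 was 34.0 and 33.8 CPM, with a ratio interval of 0.826 to 1.22, so that the 2 Id genes differed in their ratios. Feeder cells had 671 CPM of Id3 and 253 CPM of Id1. The gene on the higher side was Smad1, a BMP effector, at 2.62-fold (1.83 to 3.82).

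The FGF and ERK genes past 2-fold were all higher. Of 26 genes, 22 were measured, 6 were past 2-fold on the higher side and 0 on the lower side, and the median log2 ratio was 0.27. Besides Fgf5, the ligand Fgf8 was 10.1-fold higher (4.91 to 24.3), from 1.30 CPM (8 UMIs) to 13.2 CPM (82 UMIs). Ier3 was 3.86-fold higher (3.31 to 4.51). Dusp4, a phosphatase that damps ERK, was 2.76-fold higher (2.17 to 3.53) and the immediate early factor Egr1 2.62-fold (2.31 to 2.98). Dusp6 was 1.63-fold higher (1.40 to 1.90), while Spry4, another feedback gene of the pathway, was 1.70-fold lower (1.41 to 2.05). Classical ERK response genes thus lay on both sides of equality.

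Activin, present in the EpiLC medium, signals through SMAD2/3, as Nodal does. Of 22 genes of this list, 15 were measured, 4 were past 2-fold on the higher side and 1 on the lower side, and the median log2 ratio was 0.28. The genes on the higher side included antagonists of these ligands. Lefty1 was 68.7 CPM (62.3 to 75.6) in ESCs and 435 CPM (419 to 452) in 48h-EpiLCs, 6.33-fold higher (5.71 to 7.03). Lefty2, its neighbour on chromosome 1 and a close paralog, was 3.11-fold higher (2.55 to 3.82), and reads of the 2 genes may be shared or dropped. Fst, which encodes the activin antagonist follistatin, was 2.09-fold higher (1.60 to 2.74), and was 600.4 CPM in feeder cells. The ligand Nodal, at 67.1 and 48.7 CPM, was 1.38-fold lower (1.18 to 1.60), and its co-receptor Tdgf1 (Cripto), at 852 and 641 CPM, was 1.33-fold lower (1.28 to 1.39). Pcsk6, a convertase that cleaves Nodal precursors, was 3.44-fold lower (2.18 to 5.603). Inhbb, a subunit gene of activin B, had 37 UMIs (6.01 CPM) in ESCs and 0 in 48h-EpiLCs. Its ESC level was 12.5 times a floor of 3 UMIs in the 48h-EpiLC total. Inhbb was below the level for measurement over both stages.

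Among Wnt genes, 19 of 28 were measured, 3 were past 2-fold on the higher side and 1 on the lower side, and the median log2 ratio was 0.11. The ligand Wnt8a was 10.0-fold higher (5.04 to 22.6), from 1.46 CPM (9 UMIs) to 14.6 CPM (91 UMIs). Wnt3, below the level for measurement, had 3 and 53 UMIs, a ratio of 17.5 (5.67 to 87.5). The receptor genes moved apart, with Fzd2 6.87-fold higher (4.78 to 10.2), from 5.52 to 37.9 CPM, and Fzd5 6.57-fold lower (4.08 to 11.1), from 21.1 to 3.22 CPM. Ctnnb1 (β-catenin) was level, with a log2 ratio of -0.03.

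**Figure D4:**
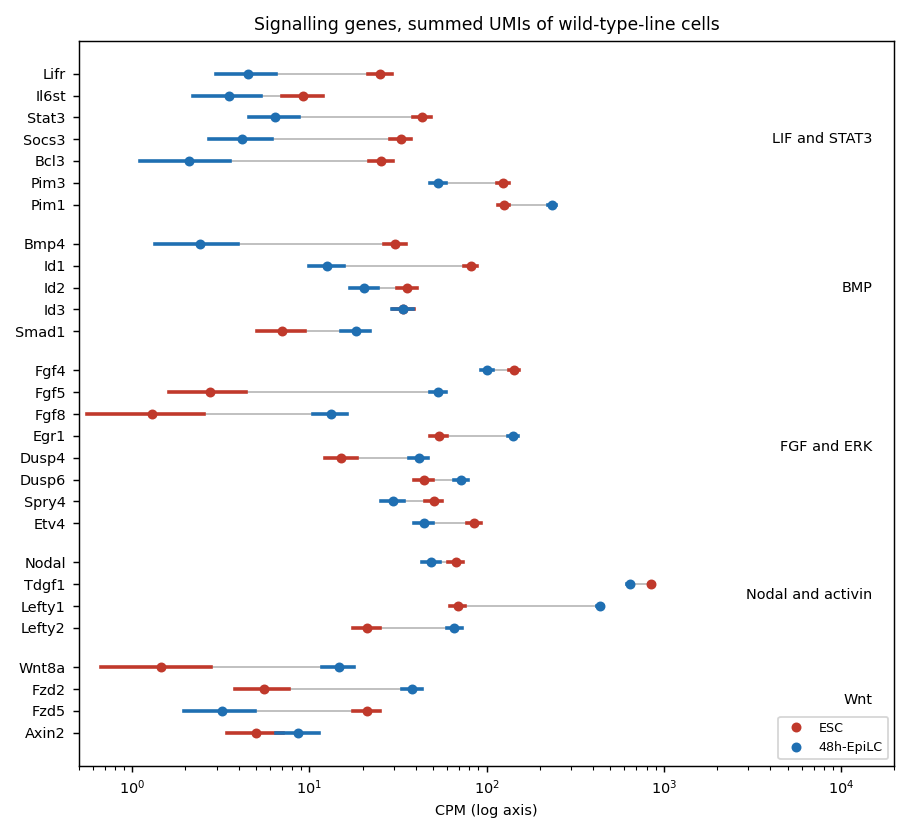
CPM on a log axis of genes of 5 signalling pathways in ESCs (red) and 48h-EpiLCs (blue), from 1 library per stage; points are levels, thick bars exact 95% Poisson intervals and grey lines join the stages. Red lies to the right for Lifr, Stat3, Socs3, Bcl3, Bmp4 and Id1, and blue to the right for Fgf5, Fgf8, Lefty1 and Wnt8a, while the Id3 points coincide.

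Enzymes of DNA methylation were past 2-fold in both directions. Of 19 measured genes, 2 were on the higher side and 4 on the lower side, with a median log2 ratio of -0.12. Dnmt3b was higher, as given above, and Dnmt3a was 1.36-fold higher (1.24 to 1.49). Dnmt3l, the catalytically inactive cofactor of both, was 2.78-fold lower (2.58 to 3.01), from 399 to 143 CPM. Of the TET dioxygenases, which oxidise 5-methylcytosine, Tet1 was 1.71-fold lower (1.58 to 1.84) and Tet2 2.49-fold lower (2.01 to 3.11), whereas Tet3 was 2.47-fold higher (1.66 to 3.75), from 5.85 to 14.5 CPM. Zfp57, which protects methylated imprints, was 6.38-fold lower (5.29 to 7.76).

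The Polycomb genes past 2-fold were all lower. Of 16 measured genes, 4 were past 2-fold on the lower side and 0 on the higher side, with a median log2 ratio of -0.50 and 4 of the 16 above 0. Of the 4 genes past 2-fold, 3 encode accessory subunits of PRC2, the complex that methylates H3K27. Epop was 3.13-fold lower (2.84 to 3.44), from 283 to 90.5 CPM, Jarid2 2.57-fold (2.39 to 2.76), from 439 to 171 CPM, and Mtf2 2.11-fold (1.97 to 2.27), from 386 to 183 CPM. The fourth, the core subunit Eed, was 2.54-fold lower (2.31 to 2.80). The other core subunits moved less, with Ezh2, the methyltransferase, 1.42-fold lower (1.31 to 1.54) and Suz12 1.28-fold lower (1.16 to 1.42).

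The lipid genes past 2-fold were all on the higher side. In the list of fatty acid synthesis and oxidation, 21 of 22 genes were measured, 7 were past 2-fold on the higher side and 0 on the lower side, and the median log2 ratio was 0.66. The desaturases, which place double bonds into fatty acids, were higher as far as they are named here. Fads2 was 16.9 CPM (13.8 to 20.5) in ESCs and 99.7 CPM (92.0 to 108) in 48h-EpiLCs, 5.90-fold higher (4.79 to 7.33). Scd1 was 3.33-fold higher (2.75 to 4.05), Scd2 2.71-fold (2.52 to 2.92), from 163 to 442 CPM, and Fads1 2.51-fold (1.89 to 3.37). Fasn, the fatty acid synthase, was within 2-fold at 1.64-fold higher (1.498 to 1.80), and Acadm, an enzyme of β-oxidation, was 1.93-fold lower (1.68 to 2.22). Other genes of β-oxidation lay on both sides. The log2 ratio of CPM + 1 was 1.18 for Cpt2, which was past 2-fold, and 0.81 for Echs1, but -0.62 for Hadha and -0.14 for Hadhb. In the cholesterol list, 21 of 22 measured genes had a log2 ratio above 0, against 4847 of 9242 over all measured genes. Past 2-fold was 1 gene (4.55%, against 4.76% of all measured genes). This was Fdps, farnesyl diphosphate synthase, at 2.81-fold (2.60 to 3.04), and the list's median was 0.36.

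In glycolysis, 18 of 22 measured genes had a log2 ratio above 0, against 4847 of 9242 over all measured genes, and the median was 0.36. Past 2-fold were 2 genes on the higher side (9.09%) and 1 on the lower side (4.55%), against 4.76% and 4.65% of all measured genes. Slc16a3, the lactate exporter MCT4, was 2.80-fold higher (2.55 to 3.08), from 98.6 to 276 CPM. Aldoc was 2.21-fold higher (1.52 to 3.27), but its log2 ratio turned to -0.71 with the cells of at least 2 tdTomato UMIs. Pfkp, the platelet-type phosphofructokinase, was 3.42-fold lower (2.76 to 4.27), and Hk2, a hexokinase, 1.55-fold lower (1.45 to 1.66). Of the 31 measured nuclear genes of oxidative phosphorylation, 0 were past 2-fold, and the median was 0.02.

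Among genes past 2-fold, most of those of the basement membrane and matrix were lower and most of those of epithelial adhesion were higher. Of 19 measured genes of laminin, collagen IV and matrix, 4 were past 2-fold on the lower side and 1 on the higher side, with a median log2 ratio of -0.25. Lama1, the laminin α1 chain, went from 14.9 CPM (92 UMIs) to 0.643 CPM (4 UMIs), 23.2-fold lower (8.78 to 87.1). Nid1 (nidogen) was 13.4-fold lower (7.28 to 27.5), Fn1 (fibronectin) 2.97-fold (2.55 to 3.46) and Lamc1 2.36-fold (1.97 to 2.83). Feeder cells had 154 CPM of Nid1 and 939 CPM of Fn1, but 0.807 CPM of Lama1. Of 17 measured adhesion genes, 5 were past 2-fold on the higher side and 1 on the lower side. Krt8, the partner of Krt18, was 5.55-fold higher (3.77 to 8.42), and Cldn6 3.12-fold higher (2.50 to 3.92). The gene on the lower side was Vim (vimentin), at 254 and 79.7 CPM, which was 4896 CPM in feeder cells. In the contractile list, 4 of 16 measured genes were past 2-fold on the higher side and 1 on the lower side, with a median log2 ratio of 0.65 that changed sign when genes high in feeder cells were left out. Tpm2 (tropomyosin 2) was 21.1 and 68.5 CPM, and 1001 CPM in feeder cells. Tagln (transgelin) was 10.7 and 23.3 CPM, and 2495 CPM in feeder cells, and its log2 ratio turned to -0.28 when cells with Y-linked UMIs were kept. The part of feeder RNA in these values was not tested, and the 48h-EpiLCs had been grown on Matrigel.

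Of the 14 genes of the list of MHC class I antigen presentation, 8 were measured and 3 were past 2-fold, on the higher side. The list does not hold H2-M5, the non-classical gene given above as lower. H2-K1, a classical MHC class I chain, was 12.7 CPM (10.0 to 15.8) in ESCs and 56.4 CPM (50.7 to 62.7) in 48h-EpiLCs, 4.45-fold higher (3.48 to 5.77). Psmb8, a subunit of the immunoproteasome, had 3 and 60 UMIs, a ratio of 19.8 (6.46 to 98.7), and feeder cells had 6.46 CPM of it. In addition, the peptide transporter Tap1 had 11 and 59 UMIs, a ratio of 5.31 (2.76 to 11.2). B2m, the light chain that all class I molecules need, was 8.77 and 11.6 CPM, with an interval of the ratio (0.914 to 1.91) that included equality, and was 409.9 CPM in feeder cells.

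Several gene families held members that moved in opposite directions. Of the metallothioneins, which bind zinc, Mt2 was 2.13-fold lower (2.03 to 2.23), from 910.3 to 428 CPM, and Mt1 1.71-fold lower (1.66 to 1.77), whereas Mt3 was 4.03-fold higher (3.08 to 5.34), from 11.05 to 44.5 CPM. The 3 genes lie next to each other on chromosome 8. Of the Myc family, Mycn was 2.51-fold lower (2.21 to 2.86), from 133 to 52.9 CPM, Myc 1.30-fold higher (1.05 to 1.61) and Mycl, below the level for measurement, 4.62-fold higher (2.22 to 10.8) on 9 and 42 UMIs. Of the imprinted genes, 4 of 20 measured were past 2-fold on the lower side and 2 on the higher side. Peg10 was 3.47-fold lower (3.12 to 3.87), Peg3 2.71-fold (2.50 to 2.93) and H19 2.11-fold (1.70 to 2.64), while Ndn was 2.21-fold higher (1.49 to 3.34) and was 112 CPM in feeder cells.

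Cell cycle and RNA decay genes were mostly level. Of 24 S phase genes 0 were past 2-fold, and of 26 mitotic and cyclin genes 1 was, Ccnd3 (cyclin D3), which was 3.52-fold lower (3.15 to 3.94), from 227 to 64.5 CPM. Of 22 measured genes of the Ccr4-Not deadenylase complex and its partners 0 were past 2-fold, and the median log2 ratio was 0.05. Cnot8 was 43.1 CPM (38.0 to 48.6) in ESCs and 49.7 CPM (44.3 to 55.5) in 48h-EpiLCs, with a ratio interval of 0.976 to 1.36. Of 28 measured genes of other mRNA decay factors 2 were past 2-fold, both lower, a share of 7.14% against 4.65% of all measured genes. Zfp36l1, which recruits deadenylases to AU-rich mRNAs, was 3.40-fold lower (2.75 to 4.22), and the decapping enzyme gene Dcp2 2.06-fold lower (1.70 to 2.49).

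Of 14 measured immediate early genes, 4 were past 2-fold on the higher side and 0 on the lower side, 12 had a log2 ratio above 0, and the median was 0.51. Fosb was 4.36-fold higher (3.33 to 5.79), from 10.7 to 46.8 CPM. In the amino acid response list, 20 of 22 genes were measured, 16 had a log2 ratio above 0, and the median was 0.45. Past 2-fold were 2 on the higher side (10%) and 1 on the lower side (5%), against 4.76% and 4.65% of all measured genes. Chac1 was 6.43-fold higher (3.90 to 11.2), from 2.92 to 18.8 CPM, and Ddit3 (CHOP) 2.69-fold lower (1.82 to 4.07). Dissociation and handling can change such genes, and their part was not tested.

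**Figure D5:**
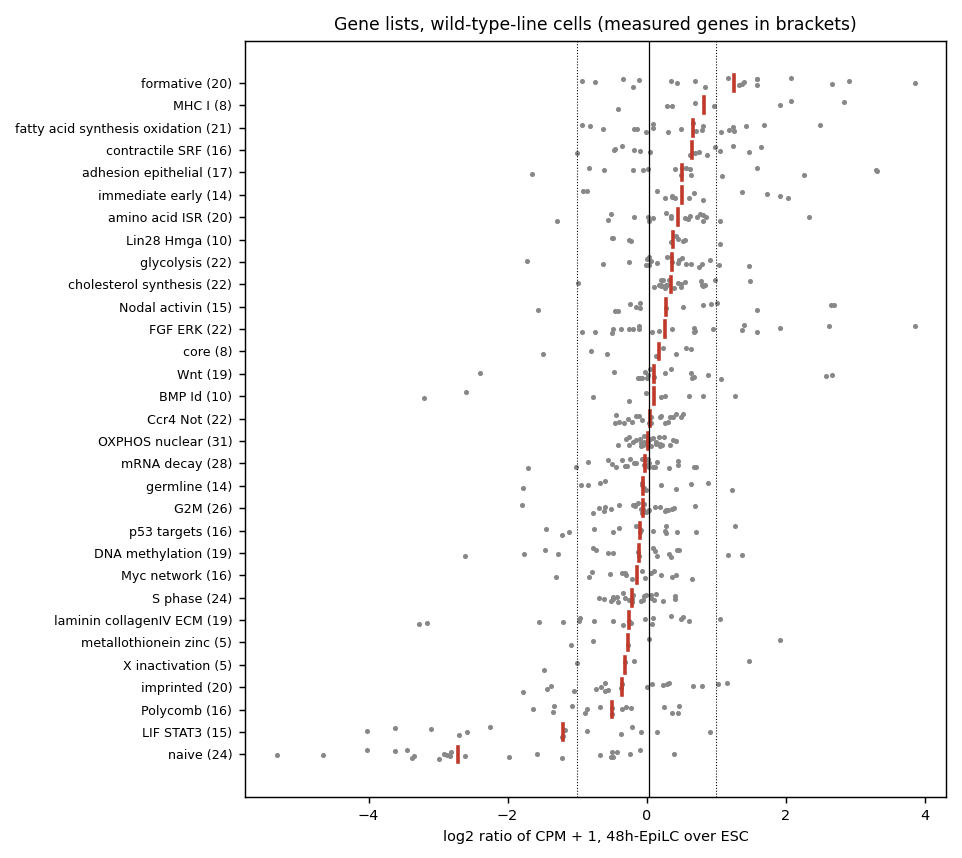
log2 ratio of CPM + 1, 48h-EpiLC over ESC (x axis), of every measured gene (grey points) in the gene lists (y axis, number of measured genes in brackets), sorted by their medians (red bars), from 1 library per stage; the solid line is the median of all measured genes and the dotted lines are 2-fold. The naïve and LIF lists have medians below -1 and the formative list a median above 1, and the other medians lie between the dotted lines.

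Chromosomes did not stand apart as wholes. The median log2 ratio by autosome lay between -0.01 (chromosome 11) and 0.07 (chromosome 8), and it was 0.04 for 312 measured genes on the X. Of the genes that govern X inactivation, Xist was 3.35-fold lower (1.98 to 5.93) on 63 and 19 UMIs and Tsix 2.04-fold lower (1.68 to 2.48). They overlap on opposite strands, and feeder cells had 199 CPM of Xist. Ftx was 3.14-fold higher (2.05 to 4.94).

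The comparison was set beside cells of the same libraries that had 0 tdTomato UMIs and at least 2 Y-linked UMIs (2978 and 2977 cells). These cells were taken to stand for the KO line, though this was not shown. The sources used here do not give the Y-linked content of either line. Their naïve median log2 ratio was -1.83 and their formative median 0.98, against -2.72 and 1.25 in the chosen cells. Of the 440 genes on the higher side in WT-line cells, 428 had a ratio of the same sign in the Y-positive cells, and 184 were past 2-fold there too. Of the 430 on the lower side these were 421 and 241. The median log2 ratios of the 2 sets were 1.33 and -1.53 in WT-line cells, and 0.89 and -1.06 in Y-positive cells. Both sets were chosen by their ratio in WT-line cells alone, so smaller ratios in the other cells can follow from that choice. The matching shares over all measured genes were not worked out, and both sets of cells came from the same libraries. The counts are therefore a description and not a repeat of the comparison. Myo1f differed most plainly among the named genes, at -4.59 in WT-line cells and -0.56 in Y-positive cells on the log2 ratio of CPM + 1, and Dppa3 was 0.39 and 1.83. Genotype, line and Y-linked content of the cells cannot be told apart, and with 1 library per stage the difference between the sets has no test.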

How the data were processed

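Each of the 2 deposited matrices held UMI counts of genes in barcodes. For these counts the authors ran Cell Ranger (3.0.2) against mm10 with the tdTomato sequence added. Seurat (4) is also listed in the submitters' processing notes. The matrices were raw counts of 32286 features. No correction for free RNA and no use of strand is given in the sources used here. Counts were summed over the chosen cells of a library and divided by their total (CPM). Gene ratios carry exact conditional binomial intervals, levels exact Poisson intervals, shares Clopper-Pearson intervals (Python 3, SciPy), all for counting error only. A gene was measured at a mean of 5 CPM, the pseudocount was 1 CPM, and 0 UMIs were bounded by a floor of 3 UMIs per stage (0.487 and 0.482 CPM). Ratios to this floor leave out the counting error of the other stage. No doublet caller was run. Of features sharing a symbol, the one with most UMIs kept it. Gene positions came from GENCODE M21 on GRCm38 (99.6% of features found), promoters from RefSeq. Named were the naïve, formative and core genes, the 15 other genes with the largest and smallest log2 ratio of CPM + 1 (at least 20 CPM at the higher stage), and of each other list the members with the largest and smallest ratios, the highest level or a defining role. Genes at least 10-fold higher in cells with 6 of 10 feeder markers were given with their feeder level. A few further members were named after their values were seen. The cells, members and lists were chosen with earlier results of these data known. The feeder cells used as background were defined after those with 6 markers were seen to hold ESC transcripts. The script was checked on simulated counts. TMM factors came from edgeR, as an alternative scaling. A few genes of the lists and of the 15 on each side are not reported here.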

Additional observations from a re-analysis of the deposited data

Results flagged for a closer look

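Fst, the follistatin gene, moved in opposite directions in the 2 sets of cells of the same libraries, and this difference was not tested. Its log2 ratio of CPM + 1, 48h-EpiLC over ESC, was 1.01 in WT-line cells (13.6 and 28.5 CPM) and -1.10 in Y-positive cells (14.2 and 6.10 CPM). Feeder cells of the ESC library had 600.4 CPM of it. No other measured gene was past 2-fold in WT-line cells and past 2-fold the opposite way in Y-positive cells. With 1 library per stage no sample could be compared with others of its group.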

How the results depend on the processing

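No paired analysis was possible because each stage had 1 library and no result came from a test. The counts of 440 genes on the higher and 430 on the lower side of 2-fold moved with the filter on level and with the fold. A pseudocount of 5 CPM gave 229 on the higher side, a mean of at least 1 CPM gave 848 and 705, and a mean of at least 20 CPM gave 150 and 207. Cells with at least 2 tdTomato UMIs (33 and 24 cells) gave 1129 and 943, a fold of at least 1.5 gave 1225 and 1058, and a fold of at least 4 gave 61 and 107. The naïve median stayed between -2.77 and -1.73 and the formative median between 0.84 and 1.33 over 14 alternatives each, of which leaving out genes high in feeder cells was chosen after the data were seen. The ratio of median UMIs per cell stayed between 1.15 and 1.205. The naïve median of Y-positive cells stayed between -1.89 and -1.48, where at least 4 Y-linked UMIs were an added choice. TMM factors shifted the median of all genes from 0.03 to -0.02. Of 141 list or named genes past 2-fold, Aldoc (-0.71), Pycr1 (-0.16) and Sox3 (-0.24) turned sign with at least 2 tdTomato UMIs, and Tagln (-0.28) without the rule on Y-linked UMIs. The cause was not tested. Of the list medians printed above, that of oxidative phosphorylation changed sign with TMM factors and with stricter cell filters, those of the BMP and Ccr4-Not lists with a mean of at least 20 CPM, those of the BMP and contractile lists without genes high in feeder cells, and those of the core and Ccr4-Not lists with at least 2 tdTomato UMIs. Depth limits genes with few UMIs, such as Jam2 and Tbx3 in 48h-EpiLCs, and the members' share of cells of the other line could not be measured.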
